A study of Mus musculus with 12 samples.

Results

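Hepatocytes near the central vein and hepatocytes near the portal tract run different programmes, and 10 genes that mark these programmes were followed here in livers of Cyp1b1 null and wild-type mice. The members were 6 pericentral genes (Glul, Slc1a2, Oat, Cyp2e1, Axin2 and Tbx3) and 4 periportal genes (Cyp2f2, Hal, Sds and Gls2). They were found by their gene name in the array files, which gave 16 of 41174 probes, and each gene was read from its brightest measured probe, so that 10 of 14912 genes tested were members. RNA came from male C57BL6/J mice. They ate a 60% or a 10% fat diet from weaning at 3 weeks of age until they were killed at 14 weeks. The 4 groups of 3 arrays each were Cyp1b1 null on high fat, Cyp1b1 null on low fat, wild type on high fat and wild type on low fat. Cyp1b1 encodes a cytochrome P450, and the source label names liver hepatocytes. Every array also held Cy5-labelled RNA pooled from wild-type livers on low fat, beside the Cy3-labelled sample, and a value is the log2 ratio of sample over that pool. The dyes were not swapped on any array, so a fixed dye effect cannot be told apart from a gene's level against the pool. Values can be compared between arrays, but not read as a level over the pool. Per the labels 3 samples were pooled on an array, and nothing says whether arrays of a group hold different mice. P-values therefore measure the spread between arrays, which may be technical, and the small number of arrays limits the precision. In whole-liver RNA, fewer cells of a type and less RNA per cell cannot be told apart.

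Liver lobules are zoned. Wnt ligands and R-spondins from endothelial cells of the central vein activate beta-catenin in the hepatocytes around it, and these cells express glutamine synthetase (Glul), the glutamate transporter Slc1a2, ornithine aminotransferase (Oat), the ethanol-oxidising cytochrome P450 Cyp2e1, the Wnt feedback gene Axin2 and the transcription factor Tbx3. Hepatocytes on the portal side take up amino acids and ammonia first, and they express the cytochrome P450 Cyp2f2, histidine ammonia-lyase (Hal), serine dehydratase (Sds) and liver-type glutaminase (Gls2). Glutaminase releases ammonia from glutamine for urea synthesis, while glutamine synthetase captures the ammonia that passes the urea cycle.

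The readings of Glul and Slc1a2 do not depend on 1 probe. Glul had 3 measured probes and Slc1a2 had 3, and no pair of probes of 1 gene shared a run of more than 7 bases. A coding-sequence probe each of Glul, Slc1a2 and Cyp2e1 is printed, since these genes carry the largest values below (each 60 bases, 5′ to 3′).
Glul A_52_P143866: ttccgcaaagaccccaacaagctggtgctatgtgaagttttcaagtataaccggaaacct
Slc1a2 A_52_P168496: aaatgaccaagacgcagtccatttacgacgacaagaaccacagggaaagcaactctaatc
Cyp2e1 A_51_P283456: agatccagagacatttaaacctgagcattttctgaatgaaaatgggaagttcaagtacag

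Promoter sequence from RefSeq (GRCm38.p6) was at hand for 7 of the 10 members, all but Tbx3, Sds and Gls2. The 250 bases before each start were searched on both strands for CTTTGA, the core of the motif bound by the TCF and LEF partners of beta-catenin. It occurred in the windows of 3 of the 7 members, Slc1a2, Cyp2e1 and Hal, and in 13.8% of all 32851 promoter windows. Slc1a2 held 2 matches that begin 206 and 77 bases before the start, Cyp2e1 held 1 at 135 bases and the periportal gene Hal held 1 at 199 bases. A match describes letters only. The 3 windows are chr2:102706188-102706437 (plus strand), chr7:140763569-140763818 (plus strand) and chr10:93488518-93488767 (plus strand), printed with the matches in capitals.
Slc1a2: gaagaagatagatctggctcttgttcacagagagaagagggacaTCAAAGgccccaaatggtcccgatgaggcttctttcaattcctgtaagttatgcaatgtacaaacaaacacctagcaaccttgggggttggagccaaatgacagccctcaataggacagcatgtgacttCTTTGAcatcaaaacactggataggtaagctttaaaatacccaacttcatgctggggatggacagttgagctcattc
Cyp2e1: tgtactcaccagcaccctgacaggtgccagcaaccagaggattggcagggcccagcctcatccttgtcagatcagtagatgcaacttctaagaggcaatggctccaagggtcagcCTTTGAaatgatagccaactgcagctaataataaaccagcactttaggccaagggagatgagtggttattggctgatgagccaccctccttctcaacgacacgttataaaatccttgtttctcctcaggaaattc
Hal: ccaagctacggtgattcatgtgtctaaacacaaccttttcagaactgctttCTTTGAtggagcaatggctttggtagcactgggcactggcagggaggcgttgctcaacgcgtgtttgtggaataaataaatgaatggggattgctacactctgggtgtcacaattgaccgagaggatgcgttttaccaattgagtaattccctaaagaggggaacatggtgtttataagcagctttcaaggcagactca

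Per array, between 18367 and 23420 probes of the sample and between 17267 and 25995 of the pool exceeded background clearly. The arrays were scanned on 3 days, and the pool was detected on fewer probes on the first of them. Day 1 held null high-fat arrays 1 and 3, null low-fat arrays 2 and 3 and array 1 of both wild-type groups. Day 2 held array 2 of both wild-type groups, null high-fat array 2 and null low-fat array 1, and day 3 held array 3 of both wild-type groups and no null array. The brighter Cyp1b1 probe had log2 ratios between 0.65 and 1.68 on the null arrays and between -1.11 and 0.15 on the wild-type arrays. No source used here says whether the deletion covers this probe, so it does not check the labels.

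One array stood apart for these genes. On wild-type low-fat array 1, 5 of the 6 pericentral members had their lowest value of all 12 arrays, the exception being Axin2. On the same array 2 of the 4 periportal members, Sds and Gls2, had their highest value. Results that rest on the wild-type low-fat group are therefore also given without this array where that moved them, a choice made after its values were seen.

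**Figure D1:**
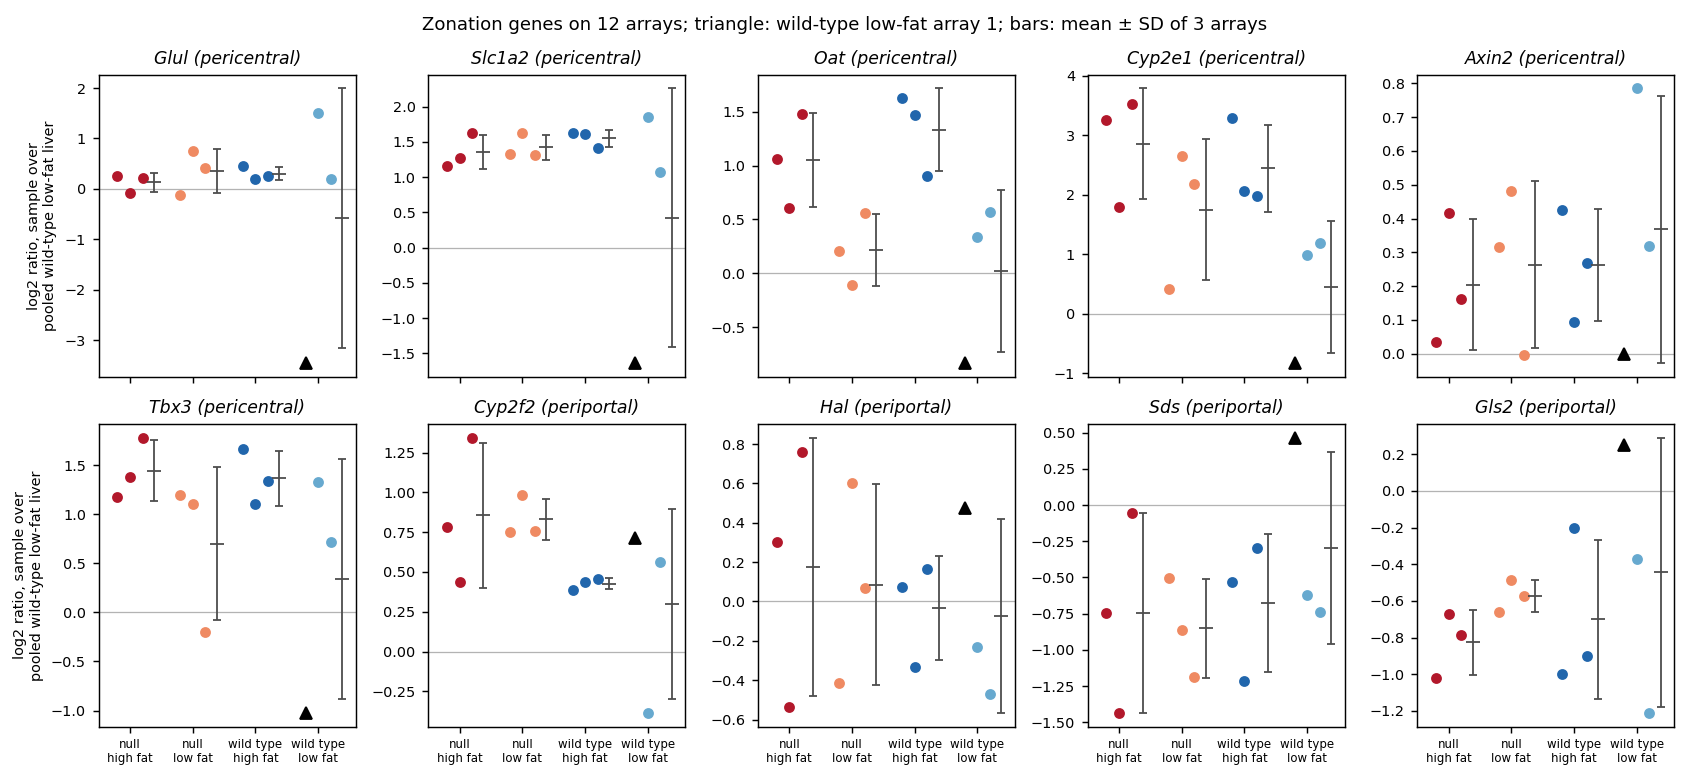
Log2 ratio of sample over pooled wild-type low-fat liver (y axis, 1 scale per gene) for the 6 pericentral and 4 periportal members on each of 12 arrays, by group (x axis), with the mean ± SD of 3 arrays at the right of each group. The triangle is wild-type low-fat array 1, which lies at -3.45 for Glul and -1.64 for Slc1a2, below all other arrays.

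Glul, the enzyme that makes glutamine from glutamate and ammonia, had log2 ratios of 0.26, -0.08 and 0.22 in null high-fat livers and -0.12, 0.75 and 0.42 in null low-fat livers. In wild-type livers it had 0.45, 0.20 and 0.26 on high fat and -3.45, 1.51 and 0.20 on low fat. The 11 other arrays lay between -0.12 and 1.51, and wild-type low-fat array 1 lay 19.8-fold below the mean of the other two arrays of its group. That log2 difference, -4.31, ranked 4 of 14901 genes among the downward differences on that array. The second Glul probe, the one printed above, read -1.49 on this array, against 1.20 and 1.34 on the other two of the group and 0.98 to 1.79 on the remaining 9 arrays. The sample channel itself was dim there, with a brightness of 554 for the main Glul probe against 6271 on wild-type low-fat array 2. The remaining Glul probe was close to background, with a brightness of 58.1 to 112, and is not used.

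Slc1a2, which imports glutamate into the same perivenous cells, behaved alike on that array. It had log2 ratios of 1.16, 1.27 and 1.63 in null high-fat livers and 1.33, 1.63 and 1.31 in null low-fat livers. Wild-type livers had 1.63, 1.61 and 1.41 on high fat and -1.64, 1.85 and 1.07 on low fat. The 11 other arrays formed a narrow band with an SD of 0.24, against 0.92 over all 12. Wild-type low-fat array 1 lay 8.58-fold below the other two of its group, rank 22 of 14901 genes in that direction. A second Slc1a2 probe read -0.95 there against 1.18 and 0.53, and the third -0.24, not well above background, against 0.86 and 0.54. The fourth Slc1a2 probe was not well above background on any array.

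The remaining pericentral members lay lower on that array by smaller steps. Relative to the other two arrays of the group, the difference on array 1 was -2.04 for Tbx3, -1.92 for Cyp2e1, -1.28 for Oat and -0.55 for Axin2. The periportal members went the other way on it, with 1.14 for Sds, 1.04 for Gls2, 0.83 for Hal and 0.62 for Cyp2f2. All 10 members kept these signs with Agilent's processed signals, without background subtraction and with median centring, where the distance of Glul was -4.64, -4.40 and -2.92. The array was distant in general as well. On it 11.1% of genes lay more than 1 log2 unit from the mean of the other two arrays of the group, against 0.46% to 8.89% on the other arrays.

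**Figure D2:**
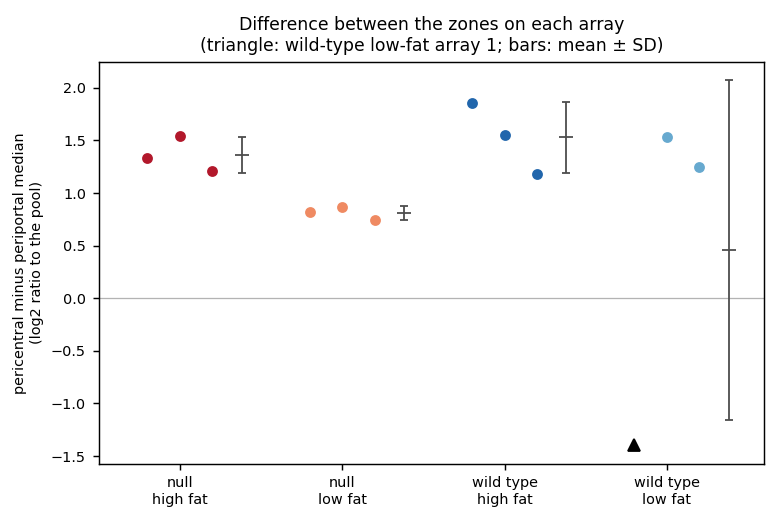
Median log2 ratio of the 6 pericentral members minus that of the 4 periportal members (y axis) on each array, by group (x axis), with the mean ± SD of 3 arrays. The 11 other arrays lie between 0.74 and 1.85, and wild-type low-fat array 1 (triangle) lies at -1.40.

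The median of the pericentral members minus the median of the periportal members summarises this per array. It was 1.33, 1.54 and 1.21 in null high-fat livers, 0.82, 0.87 and 0.74 in null low-fat livers, 1.85, 1.55 and 1.18 in wild-type high-fat livers and -1.40, 1.53 and 1.24 in wild-type low-fat livers. The group means were 1.36 ± 0.17, 0.81 ± 0.07, 1.53 ± 0.34 and 0.46 ± 1.62 (SD, n = 3 each, in the same order). The 3 null low-fat arrays lay below the 8 other arrays apart from wild-type low-fat array 1. Null high-fat and wild-type high-fat arrays overlapped. The positive level is not read as an excess over the pool of wild-type low-fat livers. Wild-type low-fat arrays 2 and 3, of the same kind as the pool, also read 1.53 and 1.24.

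By summed sample-channel brightness, markers of other liver cells were also brighter on wild-type low-fat array 1. The summed sample-channel brightness of 8 stellate cell markers was 56433 there, against 6867 to 14656 on the other 11 arrays. For 11 Kupffer cell and macrophage markers it was 93647 against 10280 to 33242, for 10 endothelial markers 23861 against 6317 to 15828, and for 6 cholangiocyte markers 25418 against 2258 to 5397. For 7 leukocyte markers it was 3738 against 699 to 1643. The 6 hepatocyte markers summed to 302835 on it, inside the range of 192928 to 315875 of the others. Their median log2 ratio was -0.13 on it, below the 0.04 to 0.72 of the other arrays. Of the 6 hepatocyte markers, 4 lay lower on that array than on the rest of its group. Relative to the other two arrays of the group, 10 of 11 Kupffer cell markers, 10 of 10 endothelial markers, 7 of 8 stellate cell markers, 5 of 6 cholangiocyte markers and 5 of 7 leukocyte markers had a higher log2 ratio on it. Such counts also occurred on other arrays, as on wild-type high-fat array 3 with 11 of 11 Kupffer cell and 10 of 10 endothelial markers, where the median differences were 0.79 and 0.66 against 1.22 and 0.69 on wild-type low-fat array 1. For cholangiocyte markers the median difference was 0.59 on that array, and 0.48 on wild-type low-fat array 2, also with 5 of 6 higher. For leukocyte markers it was 0.03 on array 1, and 0.28 on wild-type low-fat array 3, also with 5 of 7 higher. The differences on array 1 are partly set against wild-type low-fat array 2, which read low for other lists. Its median difference was -1.63 for Kupffer cell markers (0 of 11 higher), -0.62 for endothelial markers (1 of 10) and -0.69 for stellate cell markers (1 of 8). For leukocyte markers it was -0.51 there (1 of 7 higher). Unnormalised sums were also highest on wild-type low-fat array 1 for the periportal members and for 19 other periportal genes (498469 against at most 391150). The same held for 24 Wnt and R-spondin pathway genes (21683 against at most 15402), while the pericentral members had their lowest sum there (22151). For 27 other pericentral genes the sum there was 389248, inside the range of 165226 to 547801 of the other arrays. Of these genes, 10 of 27 had a higher log2 ratio there than on the rest of the group, with a median difference of -0.46. The part of other liver cells in the low Glul and Slc1a2 values was not tested.

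**Figure D3:**
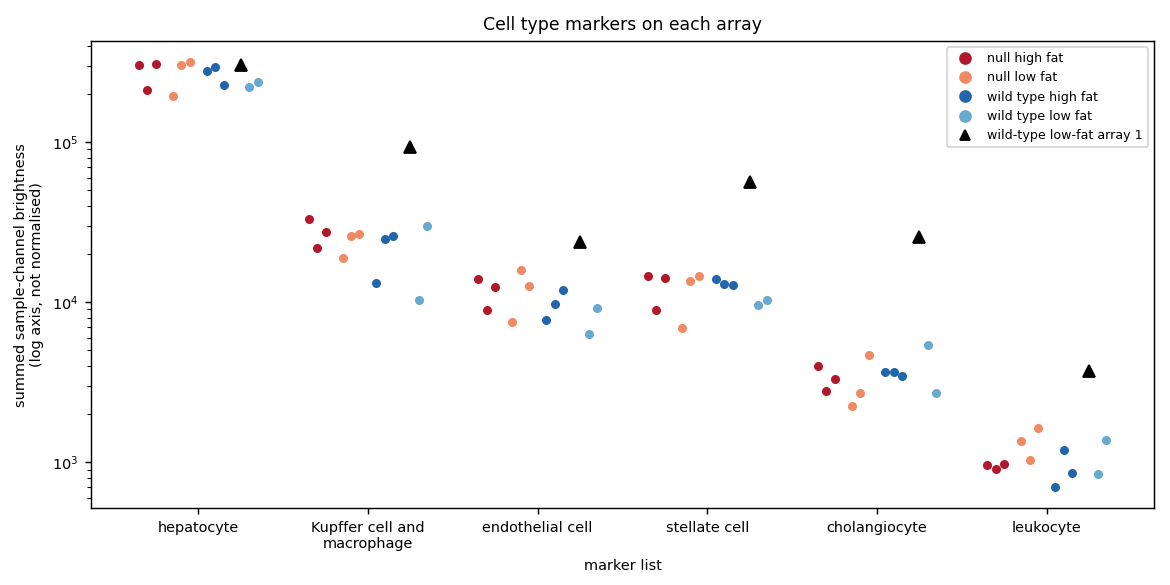
Summed sample-channel brightness (log axis, not normalised between arrays) of 6 marker lists (x axis) on each array, coloured by group. Wild-type low-fat array 1 (triangle) is the brightest array for 5 lists and lies inside the range of the others for hepatocyte markers.

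The authors' deposited table compares high with low fat in wild-type livers, and the same comparison can be made in null livers. Oat and Cyp2e1 had the largest positive differences in both genotypes, Tbx3 had a positive difference in both, and no other member had an unadjusted p under 0.05 in either genotype. No member passed an adjusted p of 0.05 (limma with Benjamini-Hochberg adjustment over all genes). The count was 0 of 10 in wild-type livers, where 0.00671% of all genes passed, and 0 of 10 in null livers, where 0.00671% passed as well. At an unadjusted p under 0.05 the members were 2 of 10 in wild-type livers, both higher, against 1.81% of all genes higher. They were Oat and Cyp2e1, and without wild-type low-fat array 1 only Oat was left, against 2.15% of all genes. In null livers 1 of 10 was higher, against 0.858% of all genes, and it was Oat.

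Oat breaks down ornithine to a precursor of glutamate. It had log2 ratios of 1.06, 0.61 and 1.48 in null high-fat livers, against 0.20, -0.11 and 0.56 in null low-fat livers. Wild-type livers had 1.63, 1.47 and 0.90 on high fat, against -0.83, 0.33 and 0.57 on low fat. Every high-fat array lay above every low-fat array, which held in the higher direction for 0.188% of all genes. The log2 change was 0.83 (SE 0.37, limma adjusted p = 1.000) in null livers and 1.31 (SE 0.37, limma adjusted p = 0.844) in wild-type livers. Averaged over both genotypes it was 1.07 (95% confidence interval 0.50 to 1.64, unadjusted p = 0.0016, limma adjusted p = 0.376). The value remained positive under each alternative, from 0.78 to 1.21. Without wild-type low-fat array 1, Oat was higher by 0.88 in wild-type livers and by 0.86 over both genotypes.

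Cyp2e1, which oxidises ethanol, acetone and fatty acids, had the largest diet values of the members. Its log2 ratios were 3.26, 1.79 and 3.52 in null high-fat livers, against 0.41, 2.65 and 2.18 in null low-fat livers. In wild-type livers they were 3.29, 2.06 and 1.98 on high fat, against -0.83, 0.98 and 1.19 on low fat. The wild-type diet groups did not overlap, which held in the higher direction for 3.55% of all genes, and the null diet groups did. The change was 1.11 (SE 0.70, limma adjusted p = 1.000) in null livers and 2.00 (SE 0.70, limma adjusted p = 1.000) in wild-type livers, or 1.36 in wild-type livers without array 1 of the low-fat group. The Cyp2e1 probe was saturated on 1 array. Over both genotypes it was 1.56 (95% confidence interval 0.46 to 2.65, limma adjusted p = 0.664), and 1.24 without wild-type low-fat array 1. Outside the wild-type low-fat group, Cyp2e1 read higher on day 1 arrays than on later ones of the same group. In wild-type low-fat livers the day 1 array read lowest, at -0.83. Within day 1 the diet difference was 0.97 in null livers and 4.12 in wild-type livers, within day 2 it was 1.38 and 1.09 in the same order, and within day 3 it was 0.79 in wild-type livers. With scan as a block and wild-type low-fat array 1 left out, an alternative chosen after the data had been seen, Cyp2e1 was higher by 0.98 over both genotypes (SE 0.14, limma adjusted p = 0.0354). It was then the only member past the threshold, which 0.288% of all genes passed in that fit. With scan as a block and all arrays the value was 1.56 with a limma adjusted p of 0.298.

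Within days, the difference of Oat was also positive each time. It was 1.05 on day 1 and 0.40 on day 2 in null livers, and 2.46, 1.14 and 0.33 on days 1 to 3 in wild-type livers. Tbx3, a T-box repressor that beta-catenin switches on, had log2 ratios of 1.18, 1.38 and 1.78 in null high-fat livers, against 1.19, 1.11 and -0.20 in null low-fat livers. Wild-type livers had 1.66, 1.10 and 1.34 on high fat, against -1.02, 1.33 and 0.71 on low fat. Both pairs overlapped. Over both genotypes the change was 0.88 (SE 0.38, limma adjusted p = 0.958), and 0.54 without wild-type low-fat array 1. The second Tbx3 probe was not well above background on any array. Over both genotypes 3 of 10 members, Oat, Cyp2e1 and Tbx3, had an unadjusted p under 0.05, all higher, where 2.52% of all genes did. With wild-type low-fat array 1 left out these were Oat and Cyp2e1 alone, where 2.7% of all genes did. With all arrays 0 of 10 passed the adjusted threshold, where 0.0335% of all genes did.

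**Figure D4:**
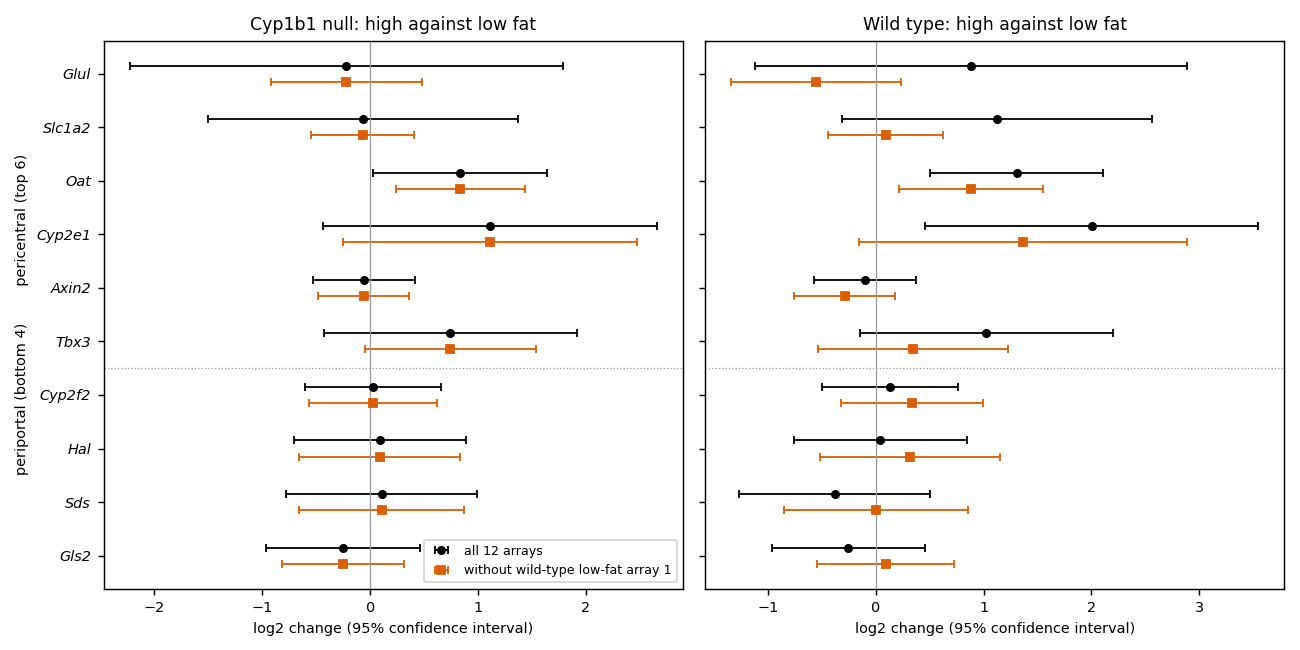
Log2 change of high against low fat (x axis, with 95% confidence intervals) for each member (rows) in null livers (left) and wild-type livers (right), with all 12 arrays and without wild-type low-fat array 1. In wild-type livers the value of Glul lies at 0.88 with all arrays and at -0.56 without that array, while Oat lies at 1.31 and 0.88.

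The wild-type diet values of the perivenous pair rested on wild-type low-fat array 1. Glul was higher on high fat by 0.88 (95% confidence interval -1.12 to 2.89) with all arrays and differed by -0.56 (-1.34 to 0.23) without it. The negative value leans on wild-type low-fat array 2, whose 1.51 was the highest Glul value of all 12 arrays. Slc1a2 differed by 1.12 (-0.31 to 2.56) with all arrays and by 0.09 (-0.44 to 0.62) without wild-type low-fat array 1. In null livers, where that array plays no part in the difference, Glul differed by -0.22 and Slc1a2 by -0.07. Axin2, an inhibitor of beta-catenin that Wnt signalling itself induces, was dim. Its diet difference was -0.06 (95% confidence interval -0.53 to 0.41) in null livers and -0.11 (-0.58 to 0.37) in wild-type livers, or -0.29 without that array.

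Among periportal members the diet differences were small against their errors. Hal, which starts histidine breakdown, differed by 0.09 (95% confidence interval -0.71 to 0.89) in null livers and by 0.04 (-0.76 to 0.84) in wild-type livers, or 0.32 without wild-type low-fat array 1. Sds, which turns serine into pyruvate, differed by 0.11 (-0.78 to 0.99) in null livers and by -0.38 (-1.27 to 0.50) in wild-type livers. Its wild-type values were -0.53, -1.21 and -0.29 on high fat, against 0.46, -0.62 and -0.74 on low fat. Without array 1 of the low-fat group that difference was -0.00087. Gls2 had log2 ratios of -1.02, -0.67 and -0.79 in null high-fat livers, against -0.66, -0.49 and -0.57 in null low-fat livers. These did not overlap, which held in the lower direction for 2.53% of all genes, with a difference of -0.25 (SE 0.32, limma adjusted p = 1.000). In wild-type livers Gls2 differed by -0.26, and by 0.09 without array 1 of the low-fat group. Intervals of this width do not show that these genes were unchanged.

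The authors' deposited table also compares null with wild-type livers on each diet. Of the members, Cyp2f2 had the smallest p over both diets, with a higher mean in null livers on each. No member passed the adjusted threshold in any genotype comparison. The count was 0 of 10 on high fat (0.0134% of all genes passed), 0 of 10 on low fat (0.0201% passed) and 0 of 10 for the mean of both diets (0.288% passed). At an unadjusted p under 0.05 it was 0 of 10, 0 of 10 and 1 of 10, where 2.58%, 7.2% and 8.4% of all genes had one.

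Cyp2f2, a cytochrome P450 of periportal hepatocytes and of airway club cells, had log2 ratios of 0.78, 0.44 and 1.34 in null high-fat livers, against 0.39, 0.44 and 0.45 in wild-type high-fat livers. On low fat it had 0.75, 0.98 and 0.76 in null livers, against 0.71, -0.39 and 0.56 in wild-type livers. The low-fat groups did not overlap, which held in the higher direction for 4.81% of all genes, and the nearest arrays were null array 1 at 0.75 and wild-type array 1 at 0.71. The difference was 0.43 (SE 0.29, limma adjusted p = 1.000) on high fat and 0.53 (SE 0.29, limma adjusted p = 0.754) on low fat, or 0.74 without wild-type low-fat array 1. Averaged over diets it was 0.48, or 1.40-fold (95% confidence interval 0.04 to 0.93, unadjusted p = 0.036, limma adjusted p = 0.548). Without wild-type low-fat array 1 it was 0.59 (limma adjusted p = 0.258). The Cyp2f2 probe was saturated on 3 arrays. Within day 1 the difference was 0.67 on high fat and 0.16 on low fat, and within day 2 it was 0.0031 on high fat and 1.14 on low fat.

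For the pericentral members the low-fat genotype difference rested on wild-type low-fat array 1. Of the 6, 5 were higher in null livers with all arrays, and 1 without it. Glul differed by 0.93 (95% confidence interval -1.08 to 2.94) and then by -0.51 (-1.29 to 0.28). With scan as a block as well it differed by -0.98 (SE 0.34, unadjusted p = 0.0173, limma adjusted p = 0.335). With array 1 left out, the rest of the wild-type low-fat group read 1.51 and 0.20 for Glul. The 1.51, on array 2, was the highest Glul value of all 12 arrays, and the negative differences lean on it. Slc1a2 differed by 1.00 (-0.44 to 2.43) and then by -0.04 (-0.57 to 0.50). Cyp2e1 differed by 1.30 (-0.24 to 2.85) and then by 0.66 (-0.86 to 2.19). Within day 1, which holds wild-type low-fat array 1, Glul was 4.04 log2 units higher in null low-fat livers. Within day 2, which holds the wild-type low-fat array at 1.51, the difference was -1.63. On high fat, a comparison without either of these arrays, the pericentral differences lay between -0.28 for Oat and 0.41 for Cyp2e1. The authors' deposited table gives Glul log2 ratios of 1.15 for null against wild type on low fat and 1.18 for high against low fat in wild-type livers. It is built from all 3 arrays of each group.

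The median change of the pericentral members minus that of the periportal members, which has no test, was -0.19 for null against wild type on high fat, 0.63 on low fat, 0.28 for high against low fat in null livers and 1.18 in wild-type livers. The same difference varied between arrays of a group with a pooled SD of 0.83, or 0.22 without wild-type low-fat array 1. When that array was left out, the zone difference was -0.59 for the low-fat genotype difference and 0.013 for the wild-type diet difference. Over all genes the median change was between -0.0055 and 0.018 in these 4 comparisons. The test of a genotype difference in the diet response called 0 of 10 members and 0% of all genes by limma. No member had an unadjusted p under 0.05 in it, where 0.899% of all genes did. The values were -1.19 for Slc1a2 (95% confidence interval -3.22 to 0.84) and -1.10 for Glul (-3.94 to 1.74). For Cyp2e1 the value was -0.89 (-3.08 to 1.29) and for Oat -0.48 (-1.61 to 0.66). These values rested on wild-type low-fat array 1, without which Slc1a2 had -0.16, Glul 0.34, Cyp2e1 -0.25 and Oat -0.05.

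Among 27 other genes known from the pericentral zone, all measured, Cyp2a5, a coumarin-hydroxylating cytochrome P450, was the 1 gene that passed the adjusted threshold. It passed for genotype on low fat, for genotype over both diets and for diet over both genotypes. Of all genes 0.0201%, 0.288% and 0.0335% passed in the same order. The Cyp2a5 probe may also report close relatives of the Cyp2a family. Cyp2a5 had log2 ratios of -0.71, -0.64 and -0.94 in null high-fat livers, -2.19, -2.55 and -2.61 in null low-fat livers, 0.38, 1.38 and 0.85 in wild-type high-fat livers and -0.14, -0.63 and 0.17 in wild-type low-fat livers. It fell by 2.25 in null against wild-type livers on low fat (SE 0.27, limma adjusted p = 0.025), and differed by -1.63 on high fat (limma adjusted p = 0.0961). Over both diets the difference was -1.94 (limma adjusted p = 0.0023), and it rose by 1.38 on high fat over both genotypes (limma adjusted p = 0.0396). With each of the 12 arrays left out in turn, the difference over both diets passed 12 times (limma adjusted p of 0.0011 to 0.014), the low-fat difference 5 times (0.0077 to 0.127) and the diet change 2 times (0.0302 to 0.181), with no change of sign. Of 10 other settings, 9, 6 and 6 kept the call in the same order. Median centring ended all 3 calls, and the low-fat and diet calls were also lost with no filter on dim probes, with a robust variance trend and with the replicate block.

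In wild-type livers 22 of the 27 had higher values on high fat, with a median change of 0.66, and 10 had an unadjusted p under 0.05, all higher, against the 1.81% of all genes given above. Without wild-type low-fat array 1 these were 21 of 27, a median of 0.39 and 8, against 2.15%. In null livers 19 of 27 were higher, with a median of 0.22 and 4 unadjusted calls, against 0.858%. In the same wild-type comparison 11 of 11 Kupffer cell and 6 of 6 cholangiocyte markers had lower values on high fat. The medians were -0.39 and -0.14, and without wild-type low-fat array 1 the counts were 6 of 11 and 4 of 6. With all arrays 6 of 10 endothelial, 4 of 8 stellate cell, 6 of 7 leukocyte and 2 of 6 hepatocyte markers were lower. The part of these markers in the values of the list was not tested. Gulo, which in mice completes vitamin C synthesis, had the smallest p in wild-type livers. It read 0.76, 0.82 and 0.32 on high fat, against -0.23, -0.23 and -0.41 on low fat, a difference of 0.93 (SE 0.18, limma adjusted p = 0.509). Aldh1a1, a retinaldehyde dehydrogenase, differed by 1.02 in null livers and by 0.84 in wild-type livers. For null against wild type the list was split, with 10 of 27 higher on high fat and 16 of 27 on low fat, and median changes of -0.07 and 0.14. Leaving out wild-type low-fat array 1, the low-fat values were 13 of 27 and a median of -0.10.

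Of 20 other periportal genes 19 were measured, and none passed the adjusted threshold by limma in any of the 7 comparisons with all arrays. Their median diet change was -0.13 in null livers and -0.07 in wild-type livers, with 9 of 19 higher in each. At an unadjusted p under 0.05, 1 gene was called in null livers (1.91% of all genes) and 2 in wild-type livers (4.02% of all genes), and without wild-type low-fat array 1 the wild-type values were a median of 0.17, with 4 genes higher and 1 lower (4.61% of all genes). Hsd17b6, a steroid dehydrogenase, was higher on high fat by 1.43 in null livers and by 0.94 in wild-type livers, or 1.46 without that array. Cdh1, the epithelial cadherin of portal-side hepatocytes and bile ducts, read -1.34, -1.31 and -1.40 in wild-type high-fat livers, below each array of the other 3 groups. It differed by 1.34 for null against wild type on high fat (SE 0.32, limma adjusted p = 0.552), while the low-fat means were -0.06 in null and -0.11 in wild-type livers. Mfsd2a, a lipid transporter, differed by -1.52 in the same comparison (SE 0.44, limma adjusted p = 1.000). Without wild-type low-fat array 1, 2 genes of the list passed for null against wild type over both diets, where 0.758% of all genes did. They were Cdh1 with 0.90 (SE 0.16, limma adjusted p = 0.035) and Mfsd2a with -1.46 (SE 0.25, limma adjusted p = 0.0309). Etnppl and the gluconeogenic enzyme G6pc had the smallest p on low fat, with differences of -0.82 and 1.06 for null against wild type, or -0.49 and 1.23 without that array.

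The Wnt and R-spondin pathway that maintains the pericentral programme had 24 of 27 listed genes measured, and none passed in any comparison with all arrays. Median changes lay between -0.06 and 0.08 in the 4 comparisons of 3 against 3 arrays. Unadjusted calls were 0 for the genotype on high fat, 3 for the genotype on low fat, 0 for diet in null livers and 2 for diet in wild-type livers, where 2.58%, 7.2%, 1.91% and 4.02% of all genes had one. Tcf7l1, a TCF factor that mostly represses, differed by -0.66 for null against wild type on low fat and by -0.61 for high against low fat in wild-type livers. The R-spondin receptor Lgr4 differed by 1.05 for null against wild type on low fat (0.88 without wild-type low-fat array 1), and the Frizzled receptor Fzd8 by 0.54 on high fat in wild-type livers and by 0.34 in null livers. Rnf43, a ligase that removes Frizzled receptors, differed by 0.63 for null against wild type on high fat.

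Glutamine, glutamate and ammonia genes, a list that also holds Glul, Slc1a2, Oat and Gls2, had 21 of 22 genes measured. Of these 15 were higher on high fat in null livers and 13 in wild-type livers, with 0 adjusted calls by limma. There were 2 unadjusted calls in each, 1 of them Oat, where 1.91% of all genes in null livers and 4.02% in wild-type livers had one. When wild-type low-fat array 1 was left out the wild-type count was 19, with a median of 0.37 against 0.25 with all arrays. There were then 3 unadjusted calls, where 4.61% of all genes had one. With all arrays, the unadjusted calls beside Oat were Gpt, an alanine aminotransferase, with 0.76 in null livers, and the urea cycle enzyme Otc with 0.58 in wild-type livers (0.37 without that array). Prodh, which starts proline breakdown, differed by 1.06 for null against wild type on low fat, or 0.60 without it. The list for histidine, serine and threonine breakdown, which holds Hal and Sds, had 16 of 17 genes measured and median changes between -0.02 and 0.04. Amdhd1, a later enzyme of the histidine pathway that begins with Hal, read 2.75 on wild-type low-fat array 1 and between -0.73 and 0.35 on the other arrays. Its difference of -1.63 for null against wild type on low fat was the lowest of the list, and without that array it was -0.78. Dmgdh, a choline breakdown enzyme, differed by 0.87 in the same comparison.

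The genes whose pattern over the 12 arrays was closest to that of Glul were Sult2a8, Elovl3 and Mup4. The measure was the root mean square difference of centred log2 ratios among the 70 genes that vary at least as much, and it was 0.66, 0.78 and 0.84. On wild-type low-fat array 1 they read -2.67, -4.80 and -2.30, each its lowest value. The SD of Glul was 1.18 over all 12 arrays and 0.45 without that array, so the filter and the measure both lean on it. Low values of these genes there thus follow in part from how they were chosen. Closest to Cyp2f2 among 3284 genes were Clp1, Klhdc2 and Plaa, at 0.15, 0.15 and 0.18.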

How the data were processed

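Liver RNA was hybridised to 12 two-colour Agilent arrays, 3 in each of 4 groups taken from the labels. The deposited intensity columns give mean brightness and local background of every spot in both colours, made by Agilent Feature Extraction (version 9.1.3.1 of its spot analysis) per the file headers. That software also wrote the deposited processed intensities, the deposited log10 ratios (Cy5 over Cy3) and marks for spots above background, saturated or not uniform. The authors' deposited table gives log2 ratios between groups for each spot; the submitters' processing notes name limma. It was checked against the scanner files and matches differences between group means of the log10 ratios. No source used here says which of 2 labelling kits each sample had.

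From the intensities, background was corrected by normexp (offset 50), Cy3 over Cy5 was taken as a log2 ratio and normalised by loess within arrays, and 120 non-uniform spots were left out (limma 3.58.1, R 4.3.3). Probes count as measured if the sample exceeded background on every array of some group (14 of 16 member probes did), and the brightest such probe stands for its gene. Limma fitted 4 group means to all 12 arrays (8 residual and 3.16 prior degrees of freedom), with 7 contrasts, Benjamini-Hochberg adjustment over 14912 genes and a threshold of 0.05. The steps were tested on simulated data. Of member probes, that of Cyp2f2 was saturated on 3 arrays, that of Gls2 on 2 and that of Cyp2e1 on 1.

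Named were the 10 members, list genes past the threshold or else the 2 with the smallest p in a comparison, and the 3 genes most like Glul and Cyp2f2. The look at Amdhd1 on single arrays, and at array 1 of the wild-type low-fat group, came after values were seen. The members and lists were chosen with earlier results of these data known. The replicate numbers did not pair the arrays in all groups. Within the wild-type diet comparison, same-numbered arrays shared a scan day and correlated at 0.33 to 0.46, against -0.31 to 0.02 for other pairs, and with a replicate block or a scan block 0 members passed there. Over all groups, deviations of same-numbered arrays from their group means correlated with a median r of -0.01 (range -0.58 to 0.57), against 0.38 for arrays of 1 scan day. Alternatives were other background corrections and normalisations, probe filters, blocks for scan, slide and replicate number, and each array left out. No genome build is named in the files, so positions are given only for RefSeq promoters.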

Additional observations from a re-analysis of the deposited data

How the results depend on the processing

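Each comparison was recomputed under 23 or 24 alternatives. Of 165 counts of members past the threshold, 164 were 0. Of 165 zone differences (pericentral minus periportal median change), 159 stayed within the spread between arrays, with changes of sign allowed. That count takes the spread with all arrays, a pooled SD of 0.83, which wild-type low-fat array 1 widens. Without that array the pooled SD was 0.22. For null against wild type over both diets the zone difference was 0.27, and down to -0.33 with an array left out. On high fat it was -0.19, and up to 0.15 under other settings. The exceptions to both counts leave out wild-type low-fat array 1. For null against wild type on low fat the zone difference was then -0.59, and -0.48 with scan as a block as well. Leaving out each array in turn gave -0.59 to 1.22. For high against low fat in wild-type livers it was 0.013, and 0.059 with the block, within 0.013 to 1.89 over single arrays. For the interaction it was 0.36, and 0.42 with the block, within -1.32 to 0.36. With that block and without that array, 1 member passed for high against low fat over both genotypes, Cyp2e1 at 0.98. The cause was not tested. Of single-member values whose sign differed from that with all arrays, 4 had an unadjusted p under 0.05 and 0 passed. These were Glul with that block and without that array, at -0.98 (genotype, low fat), -0.72 (mean genotype), -0.75 (wild-type diet) and -0.49 (mean diet). They lean on wild-type low-fat array 2, which at 1.51 had the highest Glul value of all 12 arrays. With the replicate block, zone differences were 0.63 (genotype, low fat) and 1.18 (wild-type diet) and 0 members passed, so it changed no call of a member, but the Cyp2a5 calls on low fat (limma adjusted p = 0.0787) and for diet (0.123) were lost. Counts over all genes for the mean genotype difference ranged from 1 to 239 against 43. With 3 arrays per group, confidence intervals of single members span 0.67 to 5.67 log2 units, and dim probes such as Axin2 lie close to background.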
